A study of Mus musculus with 5 samples.

Results

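The lysosomal cathepsins described here are 10 mouse genes, *Ctsa*, *Ctsb*, *Ctsd*, *Ctsf*, *Ctsh*, *Ctsk*, *Ctsl*, *Ctso*, *Ctss* and *Ctsz*, of the 24843 genes quantified by RNA-seq. They were taken by name, and the values of all RefSeq transcripts carrying 1 of these symbols were summed within each sample. All 10 were present in the files. The 5 samples were 2 replicates of neural stem cells (NSCs) and 3 replicates of STO cells, both labelled as strain C57BL/6. NSCs were primary cells of the embryonic mouse cortex, used at passages 5 to 8 and grown as monolayers on poly-L-ornithine and laminin in neural basal medium with EGF, bFGF and heparin at 20 ng/ml each and 2% B27. STO is an established line of SIM mouse embryonic fibroblasts that is resistant to thioguanine and ouabain and is widely used as a feeder layer, here kept for more than 30 passages in high-glucose DMEM with 10% fetal bovine serum, 1% non-essential amino acids, 2 mM glutamine and antibiotics. Cell type, passage, substrate and medium therefore differ together, and their parts in any difference cannot be told apart. The strain label of STO cells was not reconciled with the SIM origin of the line, so genetic background may differ as well. The labels do not say whether replicates came from separate cultures or animals, so the p-values measure only the spread between these samples, which may be technical.

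Cathepsins are proteases of the endosome and lysosome. Most of them are papain-like cysteine proteases, whereas *Ctsd* encodes an aspartic protease and *Ctsa* a serine carboxypeptidase. They are made as inactive proenzymes, carried to the lysosome largely by receptors for mannose 6-phosphate and activated by cleavage at acid pH. The cysteine cathepsins are held in check by cystatins. *Ctss* is best known in antigen-presenting cells and microglia, *Ctsk* in osteoclasts and fibroblasts, while *Ctsd*, *Ctsb* and *Ctsl* are found in most cell types, and loss of *Ctsd* or *Ctsf* is known to cause neuronal ceroid lipofuscinosis.

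Lysosomal genes are known as targets of the transcription factors TFEB and TFE3, which bind E-boxes, so the start sites of the cathepsin genes were searched for CACGTG. RefSeq promoters (GRCm38.p6, 250 bases before to 50 after the start) were listed for 8 of the 10 genes. *Ctsb* and *Ctsh* had no entry. Each sequence matched mm9 once on its listed chromosome and strand, and the rest of the genome was not searched. At least 1 CACGTG lay in the promoters of 4 of these 8 genes, *Ctsa*, *Ctsd*, *Ctsf* and *Ctsl*, against 8.09% of all 27025 genes and 7.15% of all 32851 promoters in the table. The motif reads the same on both strands. The longer form TCACGTGA, which contains it, was found 2 times in *Ctsa* and 1 time in *Ctsd*, and in 0.974% of all promoters. The form with 1 flanking base, TCACGTG, was found on either strand in the *Ctsa* and *Ctsd* promoters and in 3.77% of all promoters. It was not found in the promoters of *Ctsf* and *Ctsl*, which held only the shorter CACGTG. The 5 windows around CACGTG are shown 5′ to 3′ on the strand of the gene. CACGTG is in capitals, and positions are counted from the RefSeq promoter start. In the GENCODE annotation of mm9, *Ctsl* started 214 bases downstream of its RefSeq transcript and *Ctsd* 168 bases upstream. The *Ctsd* motif at -98 therefore lay within the GENCODE gene, and the *Ctsl* motif lay farther from the GENCODE start. The outermost start of *Ctsa* differed by 1 base and that of *Ctsf* by 0.
Ctsa, mm9 chr2:164659257-164659286, plus strand, motifs at -12 and 6: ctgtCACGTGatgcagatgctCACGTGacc
Ctsd, mm9 chr7:149573960-149573982, minus strand, motif at -245: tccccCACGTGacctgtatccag
Ctsd, mm9 chr7:149573813-149573842, minus strand, motif at -98: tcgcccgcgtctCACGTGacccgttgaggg
Ctsf, mm9 chr19:4855074-4855103, plus strand, motif at -79: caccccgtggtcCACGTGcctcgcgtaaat
Ctsl, mm9 chr13:64472047-64472076, minus strand, motif at -236: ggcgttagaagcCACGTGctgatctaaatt
Of these 4 genes, *Ctsa*, *Ctsd* and *Ctsl* had higher mRNA in STO cells and *Ctsf* had higher mRNA in NSCs, with the values given below. A match is a description of letters and not a measured binding site, since no binding data were analysed here.

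The sequence upstream of *Ctsf* and of *Ctsl* is shown whole, because *Ctsl* had the largest difference towards STO cells and *Ctsf* the largest towards NSCs in log2(FPKM + 1). With a smaller pseudocount, or as a ratio of means, the difference of *Ctsh* was larger than that of *Ctsf*. Capitals again mark CACGTG.
Ctsf, mm9 chr19:4854915-4855128, plus strand: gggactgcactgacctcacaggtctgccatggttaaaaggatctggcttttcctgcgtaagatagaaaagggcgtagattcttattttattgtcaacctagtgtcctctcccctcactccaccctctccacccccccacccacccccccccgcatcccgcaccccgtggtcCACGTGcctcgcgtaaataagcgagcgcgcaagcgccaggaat
Ctsl, mm9 chr13:64471829-64472078, minus strand: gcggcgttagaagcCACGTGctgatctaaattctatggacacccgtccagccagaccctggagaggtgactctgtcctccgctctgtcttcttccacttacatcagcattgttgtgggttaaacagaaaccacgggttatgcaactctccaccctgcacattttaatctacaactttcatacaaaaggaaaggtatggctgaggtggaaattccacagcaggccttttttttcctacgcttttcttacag
The *Ctsf* promoter held 19 CpG dinucleotides in 300 bases at 59.7% GC, and the *Ctsl* promoter 10 at 50.0% GC. The *Ctsd* promoter was the richest of the 8 with 33 CpG at 67.3% GC. The *Ctsk* promoter was the poorest with 2 CpG at 43.7% GC, against a median of 7 over all promoters.

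The deposited values are FPKM, fragments per kilobase of transcript scaled to the depth of the library, so levels can be compared between genes. The deposited confidence intervals imply 15223341 to 22271895 fragments per sample. Replicates correlated at r of 0.994 in NSCs and 0.995 to 0.996 in STO cells in log2(FPKM + 1). This was taken across genes with a mean of at least 1 FPKM in either cell type, which share library and depth. The 8 neural stem cell markers summed to 3848 to 4063 FPKM in NSCs and 0.0509 to 0.0746 in STO cells. The 8 fibroblast markers summed to 8.4 to 8.5 and 1485 to 1590 FPKM. NSCs also held 5 of 6 neuron and astrocyte markers at 1 FPKM or more, and STO cells 2. In NSCs these were led by *Map2* at 101.2 ± 1.12 (SD, n = 2) and *Gfap* at 16.4 ± 0.718 (SD, n = 2). In STO cells *Map2* stood at 4.31 ± 0.153 (SD, n = 3), and *Tubb3* was alike in both, with means of 8.69 in NSCs and 8.30 in STO cells. The part of neurons or astrocytes in any value below was not tested. In bulk samples, fewer cells of a type and less RNA per cell cannot be told apart.

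STO cells carried more cathepsin mRNA in all. Both NSC replicates, at a summed FPKM over the 10 genes of 427 and 398, lay below the STO replicates at 1089, 1033 and 1095. The means were 413 ± 20.5 (SD, n = 2) and 1072 ± 34.7 (SD, n = 3), a ratio of 2.60. The FPKM of all transcripts did not add up to the same total, running from 385485 to 446393 per sample. As a share of all FPKM the cathepsins made up 0.0928% ± 0.0051 in NSCs and 0.272% ± 0.0037 in STO cells, a ratio of 2.93.

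The make-up of the sum also differed. *Ctsd* was the leading gene in all 5 samples, at 56.0% ± 2.66 of the sum in NSCs and 44.9% ± 0.221 in STO cells. *Ctsl* made up 6.65% ± 0.0878 in NSCs and 30.4% ± 0.128 in STO cells. The parts of *Ctsb* and *Ctsz* were 13.6% and 9.60% in NSCs and 11.8% and 6.46% in STO cells, so these genes had a smaller share where their level was higher. *Ctsf*, *Ctsh* and *Ctso* made up 3.91%, 2.57% and 2.06% of the sum in NSCs and 0.0118%, 0.0032% and 0.311% in STO cells. By catalytic class, the 8 cysteine cathepsins summed to 158 ± 2.54 FPKM in NSCs and 526 ± 17.7 in STO cells, 36.6% to 40.2% and 48.9% to 49.2% of all 10. Shares of a sum are bound to each other, and no test was made on them.

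**Figure D1:**
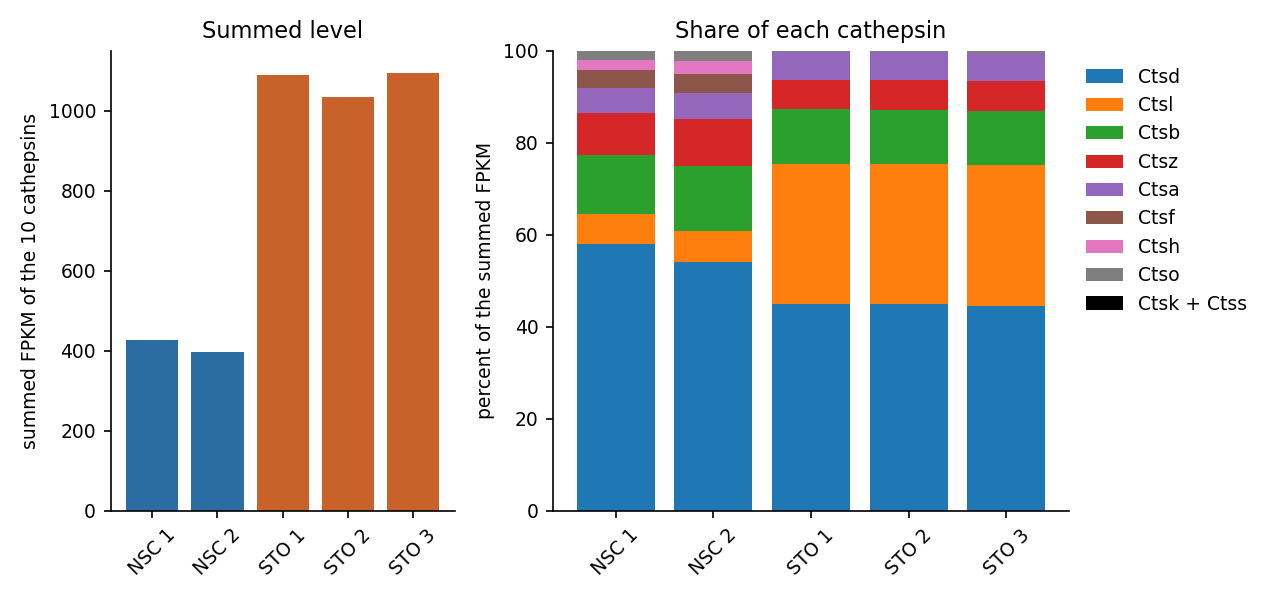
Summed FPKM of the 10 cathepsins in each replicate (left) and each gene's percent of that sum (right). The 3 STO bars stand at 1033 to 1095 against 398 and 427 in NSCs, and the *Ctsl* segment takes 6.65% of the NSC bars and 30.4% of the STO bars on average.

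The order of levels differed between the cell types. In NSCs it ran *Ctsd*, *Ctsb*, *Ctsz*, *Ctsl*, *Ctsa*, *Ctsf*, *Ctsh*, *Ctso*, *Ctsk* and *Ctss*, and no neighbours overlapped between replicates. In STO cells it ran *Ctsd*, *Ctsl*, *Ctsb*, *Ctsz*, *Ctsa*, *Ctso*, *Ctsk*, *Ctsf*, *Ctsh* and *Ctss*. There *Ctsz* and *Ctsa* overlapped, as did *Ctsh* and *Ctss*, so their order is not settled by these replicates. Below *Ctso* the order in STO cells rests on few fragments. The deposited confidence intervals of *Ctsk* and *Ctsf* overlapped in STO replicates 1 and 2. *Ctsl* stood below *Ctsz* in NSCs and above *Ctsb* in STO cells, and *Ctsf* stood above *Ctso* in NSCs and below it in STO cells.

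**Figure D2:**
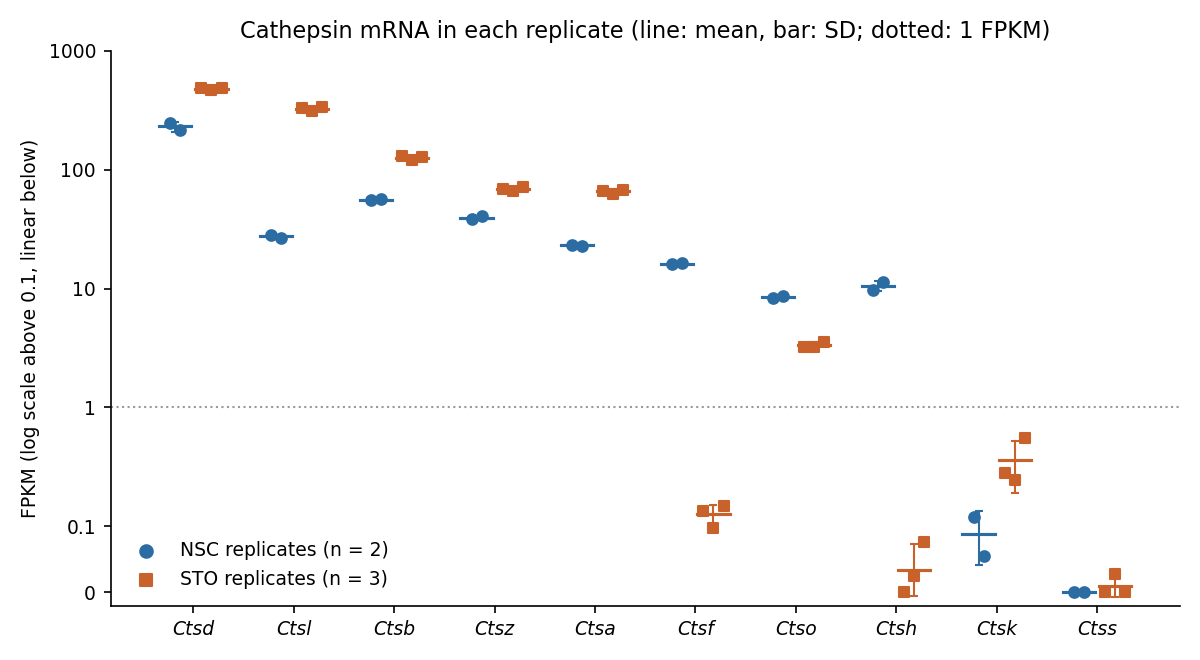
FPKM of each cathepsin in each replicate, on an axis that is logarithmic above 0.1 and linear below, with the mean as a line and the SD as a bar. For *Ctsd*, *Ctsl*, *Ctsb*, *Ctsz*, *Ctsa* and *Ctsk* all STO points lie above all NSC points, for *Ctsf*, *Ctsh* and *Ctso* all lie below, and *Ctss* is at or near 0 in both.

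Genes were compared with limma on log2(FPKM + 1), with Benjamini-Hochberg adjustment over the 12277 genes whose mean FPKM reached 1 in either cell type. A call needed an adjusted p under 0.05. Of the 10 cathepsins 8 entered the test, 6 of them with a mean of at least 1 FPKM in both cell types and *Ctsf* and *Ctsh* through NSCs alone, which means that these 2 had to differ to be tested. Of the 8, 5 were called higher in STO cells, 3 lower and 0 not called. Among the 6 with a mean of at least 1 FPKM in both cell types, only *Ctso* was lower and the rest were higher. The calls of *Ctsf* and *Ctsh* are descriptions. The background was high, as 85.7% of all genes tested were called, 41.9% as higher and 43.7% as lower in STO cells, and the groups did not overlap for 90.0%. A call alone therefore says little about the cathepsins as a family, and their sizes are given below. Adding a difference of at least 1 on the log2 scale left 4 higher and 3 lower, *Ctsz* dropping out, where 38.4% of all genes passed, 17.1% as higher and 21.3% as lower. The median difference was 0.92 over the 8 cathepsins, *Ctsf* and *Ctsh* included, and -0.02 over all genes tested. Differences below are STO minus NSC in log2(FPKM + 1), a scale that makes the change of low genes look smaller, and folds are ratios of mean FPKM.

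*Ctsl*, the cathepsin L endopeptidase (NM_009984, mm9 chr13:64463198-64471828, minus strand, up to 8 exons), had the largest difference towards STO cells. Its FPKM were 28.1 and 26.7 in NSCs and 330, 314 and 334 in STO cells. Every STO replicate stood far above both NSC replicates, and the means of 27.4 ± 0.998 (SD, n = 2) and 326 ± 10.5 (SD, n = 3) differed 11.9-fold. The log2 difference was 3.52 (SE 0.058, 95% interval 3.38 to 3.67, limma adjusted p = 2.01e-08). It ranked 300 among the 12277 genes from the top of the STO side, while 8.71% of all genes reached an absolute difference of 3.

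*Ctsd*, the aspartic protease cathepsin D (NM_009983, chr7:149561821-149573775, minus strand, up to 10 exons), was the most abundant member. Its FPKM were 247 and 216 in NSCs and 491, 464 and 489 in STO cells. The STO values lay above both NSC values, with means of 232 ± 22.4 (SD, n = 2) in NSCs and 481 ± 14.7 (SD, n = 3) in STO cells, 2.08-fold higher. In log2 terms the cell types differed by 1.06 (SE 0.080, 95% interval 0.86 to 1.25, limma adjusted p = 2.69e-05).

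*Ctsb* encodes cathepsin B, an endopeptidase that also trims dipeptides from carboxyl ends (NM_007798, chr14:63741299-63764760, plus strand, up to 10 exons). Its FPKM were 55.3 and 56.5 in NSCs and 130, 121 and 128 in STO cells. The groups were well apart, at 55.9 ± 0.817 (SD, n = 2) and 126 ± 4.78 (SD, n = 3), 2.26-fold higher in STO cells. On the log2 scale this was a difference of 1.16 (SE 0.056, 95% interval 1.02 to 1.298, limma adjusted p = 2.97e-06).

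*Ctsa* encodes the serine carboxypeptidase cathepsin A, which also protects neuraminidase and beta-galactosidase in a lysosomal complex (chr2:164658372-164666532, plus strand, up to 16 exons). Its FPKM were 23.4 and 22.7 in NSCs and 66.1, 62.9 and 67.9 in STO cells. All of this came from NM_008906, whose start lies between the pair of E-boxes shown above, while NM_001038492, which starts upstream, was listed at 0 in all 5 samples. The means of 23.0 ± 0.550 (SD, n = 2) and 65.7 ± 2.52 (SD, n = 3) differed 2.85-fold. The log2 difference was 1.47 (SE 0.056, 95% interval 1.34 to 1.61, limma adjusted p = 9.02e-07).

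*Ctsz* encodes cathepsin Z, a carboxypeptidase also called cathepsin X (NM_022325, chr2:174252995-174264540, minus strand, up to 7 exons), and had the smallest of the 8 differences. Its FPKM were 38.7 and 40.4 in NSCs and 69.1, 66.6 and 72.0 in STO cells. The groups did not overlap, with means of 39.6 ± 1.18 (SD, n = 2) and 69.2 ± 2.69 (SD, n = 3), 1.75-fold higher in STO cells. As a log2 difference this came to 0.79 (SE 0.057, 95% interval 0.65 to 0.93, limma adjusted p = 2.07e-05). *Ctsa*, *Ctsb* and *Ctsz* overlap genes on the opposite strand, *Neurl2* and *Pltp*, *Fdft1* and *Th1l*. The libraries were stranded, but whether the quantification used strand is not given in the sources used here.

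*Ctsf*, the cysteine protease cathepsin F (NM_019861, chr19:4855129-4860912, plus strand, up to 14 exons), was higher in NSCs. Its FPKM were 16.0 and 16.3 in NSCs and 0.135, 0.0979 and 0.147 in STO cells. The STO values rest on about 21 fragments in all, against 2079 in NSCs. The ratio of the means, 16.1 ± 0.221 (SD, n = 2) over 0.127 ± 0.0256 (SD, n = 3), was 127 with a 95% interval for counting error of 81.5 to 202. The log2 difference was -3.93, the largest of the family in size on this scale. *Ctsf* entered the test through NSCs alone, so this value is a description.

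*Ctsh*, cathepsin H, is mainly an aminopeptidase (chr9:89949105-89970933, plus strand, up to 12 exons). Its FPKM were 9.82 and 11.3 in NSCs, from NM_007801, and 0, 0.0255 and 0.0767 in STO cells, from the second transcript NM_001312649. STO cells held about 3 implied fragments of it in all and NSCs 897, so the assignment to a transcript in STO cells carries little information. The ratio of the means, 10.6 ± 1.06 (SD, n = 2) over 0.0341 ± 0.0391 (SD, n = 3), was 310 with a 95% counting interval of 121 to 1730. The log2 difference was -3.48, again a description, as *Ctsh* entered the test through NSCs alone. With a pseudocount of 0.1 in place of 1 the differences were -6.17 for *Ctsf* and -6.35 for *Ctsh*, so the order of these 2 depends on the pseudocount.

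*Ctso*, cathepsin O, a widely expressed cysteine protease (NM_177662, chr3:81736523-81760647, plus strand, up to 8 exons), was the third with less mRNA in STO cells. Its FPKM were 8.29 and 8.72 in NSCs and 3.25, 3.20 and 3.56 in STO cells. The ranges were apart, and the NSC mean of 8.505 ± 0.306 (SD, n = 2) was 2.55-fold above the STO mean of 3.33 ± 0.193 (SD, n = 3). On the log2 scale the difference was -1.13 (SE 0.061, 95% interval -1.28 to -0.98, limma adjusted p = 5.07e-06).

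**Figure D3:**
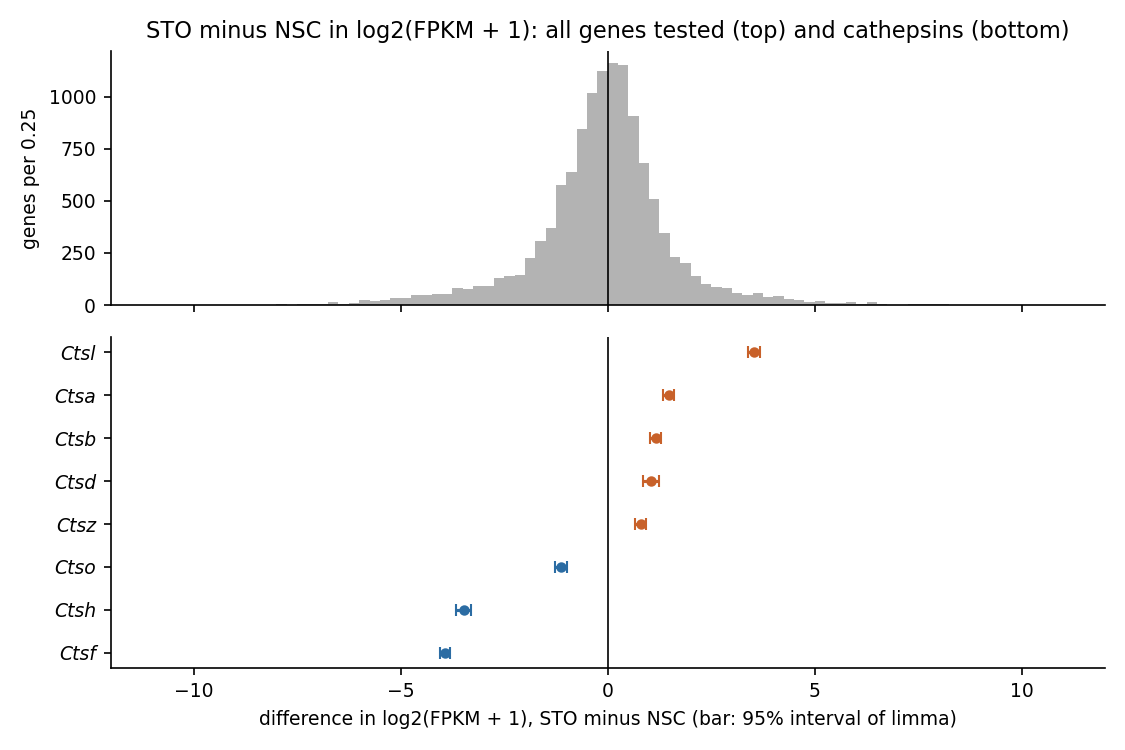
Histogram of the STO minus NSC difference in log2(FPKM + 1) over all genes tested (top) and the 8 tested cathepsins with 95% intervals from limma (bottom). *Ctsl* lies at 3.52, *Ctsa*, *Ctsb*, *Ctsd* and *Ctsz* between 0.79 and 1.47, and *Ctso*, *Ctsh* and *Ctsf* at -1.13, -3.48 and -3.93.

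The remaining 2 genes are neighbours on chromosome 3, 17.4 kb apart, and were too low to be tested. *Ctsk* encodes cathepsin K, a collagenase (NM_007802, chr3:95303132-95313309, plus strand, up to 8 exons). Its FPKM were 0.120 and 0.0550 in NSCs and 0.280, 0.244 and 0.551 in STO cells, from about 9 and 49 fragments per cell type. All STO values were above the NSC values, with a ratio of 4.09 and a 95% counting interval of 1.98 to 9.42. STO replicate 3 alone gave about 30 of the 49 fragments. When no filter on low values was used the log2 difference was 0.31 (limma adjusted p = 0.0397). In that fit 5912 of 17645 genes were called higher in STO cells and 6551 lower. The deposited confidence intervals of both NSC replicates overlapped those of STO replicates 1 and 2, but not that of STO replicate 3.

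*Ctss*, cathepsin S (chr3:95330708-95360327, plus strand, up to 8 exons), was listed at 0 in both NSC replicates and in STO replicates 1 and 3, and at 0.0285 FPKM in STO replicate 2. That value amounts to less than 1 fragment, shared between its 2 transcripts NM_001267695 and NM_021281. Of 14 macrophage and microglia markers, 10 were listed at 0 in both NSC replicates and 7 in all STO replicates, with *Adgre1*, *C1qa*, *Tyrobp* and *Spi1* at 0 in all 5 samples. Their sum was 0.734 to 0.877 FPKM in NSCs and 5.38 to 6.43 in STO cells, where *Cd14* gave 5.03 to 6.17. The 7 osteoclast markers summed to 3.74 to 3.82 FPKM in NSCs and 13.1 to 14.0 in STO cells, of which *Mmp9* gave 9.85 to 10.2, and *Dcstamp* was at 0 in all samples. At these levels *Ctss* mRNA was not detectable in NSCs, and no difference between the cell types could be measured.

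Counts in the gene lists that follow have the same background, with 85.7% of all genes tested called, 41.9% as higher and 43.7% as lower in STO cells. Of 87 genes tested in these lists, 80 reached a mean of 1 FPKM in both cell types. The other 7, *Ctsc*, *Stfa3*, *Idua*, *Cd68*, *Atp6v0e2*, *Atp6v1g2* and *Mitf*, entered only through the cell type where they were higher and had to differ to be tested, so their values are descriptions.

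Beyond these 10, the mouse cathepsin genes examined were 13, of which 12, including the placental cluster members *Ctsj* and *Ctsq*, were at 0 in every sample. The exception was *Ctsc*, which encodes the dipeptidyl peptidase cathepsin C. Its FPKM were 3.96 and 4.43 in NSCs and 0, 0 and 0.0039 in STO cells. It entered the test through NSCs alone, and the log2 difference was -2.37.

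Of 19 genes for cystatins and other cathepsin inhibitors, 3 were tested, and 2 were higher in STO cells and 0 lower. The median of 1.495 is the value of *Stfa3*, which entered through STO cells alone, and without it 1 of 2 genes was higher. *Cstb*, the cytosolic inhibitor cystatin B, had 29.2 and 28.5 FPKM in NSCs and 219, 184 and 220 in STO cells, 7.20-fold higher (log2 difference 2.80, SE 0.091, limma adjusted p = 4.45e-07). *Cst3*, the secreted inhibitor cystatin C, was more abundant than any cathepsin in NSCs. Its FPKM were 361 and 373 in NSCs and 342, 287 and 325 in STO cells, a log2 difference of -0.21 that did not pass the test (limma adjusted p = 0.0652). It passed as lower in STO cells with size factors (-0.25, limma adjusted p = 0.0226) and without STO replicate 1 (-0.26, limma adjusted p = 0.0453). *Stfa3*, a stefin with near-identical paralogs between which reads could be split, was listed at 0 in NSCs and at 1.94, 1.69 and 1.84 FPKM in STO cells.

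Of 9 genes for sorting and mannose 6-phosphate tagging, 6 were higher in STO cells, 2 were lower and 1 was not called (median 0.41), a share called near that of all genes. The number higher was 5 with size factors, with a replicate block and without any 1 of the 5 replicates. *Igf2r*, the large mannose 6-phosphate receptor, had 7.79 and 7.19 FPKM in NSCs and 79.2, 81.4 and 78.4 in STO cells, a 10.6-fold difference (3.25 on the log2 scale, SE 0.055, limma adjusted p = 2.26e-08). The small receptor *M6pr* differed less, from 33.7 ± 1.68 (SD, n = 2) to 45.2 ± 1.09 (SD, n = 3) FPKM (0.41, limma adjusted p = 0.00048). The subunits of the phosphotransferase that starts the tag went opposite ways. *Gnptab* had 14.1 ± 0.611 FPKM in NSCs (SD, n = 2) and 21.7 ± 0.846 in STO cells (SD, n = 3, log2 difference 0.59, limma adjusted p = 0.000101), whereas *Gnptg* had 32.1 ± 2.34 and 12.3 ± 1.69 (-1.32, limma adjusted p = 5.58e-05).

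Among 9 other lysosomal proteases and partners of cathepsin A, 8 were tested, with 5 higher in STO cells, 2 lower and 1 not called (median 0.25). *Dpp7*, a dipeptidyl peptidase, had 2.13 and 1.86 FPKM in NSCs and 23.8, 21.7 and 23.9 in STO cells (3.01, SE 0.071, limma adjusted p = 9.91e-08), and *Scpep1*, a serine carboxypeptidase related to *Ctsa*, was 3.43-fold higher (1.74, limma adjusted p = 8.87e-07). *Lgmn*, the legumain protease that cleaves procathepsins, had 52.0 and 46.8 FPKM in NSCs and 59.8, 55.1 and 57.0 in STO cells (0.21, limma adjusted p = 0.0243). That call did not hold with size factors (limma adjusted p = 0.0539), nor without NSC replicate 2 (0.118), STO replicate 1 (0.0805) or STO replicate 3 (0.0556). Of the proteins that cathepsin A binds, *Neu1* had 7.25 ± 0.742 FPKM in NSCs and 7.28 ± 0.209 in STO cells and did not pass (0.01, limma adjusted p = 0.921), and *Glb1* was 1.23-fold higher in STO cells (0.29, limma adjusted p = 0.00164). *Psap*, the saposin precursor that cathepsin D cleaves, had 251 ± 14.4 FPKM in NSCs and 166 ± 3.53 in STO cells (-0.59, limma adjusted p = 0.000142).

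Of 29 other lysosomal hydrolases, 28 were tested, and 22 were higher in STO cells, 2 lower and 4 not called, with a median of 0.55 against -0.02 over all genes, where 41.9% were called higher and 43.7% lower. Of the 27 that reached 1 FPKM in both cell types, 21 were higher and 2 lower (median 0.54). These counts include *Npc2*, a cholesterol-binding protein and not a hydrolase, among the higher genes. The leading genes were *Idua*, with 1.09 and 0 FPKM in NSC replicates 1 and 2 and 5.60, 4.71 and 5.13 in STO cells (2.08), and *Gla*, 4.16-fold higher at 18.7 ± 0.249 FPKM (1.85, limma adjusted p = 1.95e-06). *Idua* entered the test through STO cells alone, and its difference was 2.62 without NSC replicate 1 and 1.55 without NSC replicate 2. *Fuca1* (-1.06) and *Galc* (-0.93) were the 2 lower genes, named after their values were seen. Of 12 lysosomal membrane proteins, 7 were higher, 4 lower and 1 not called (median 0.41). *Cd68*, among the 4 lower, entered through NSCs alone. *Lamp2* was 3.84-fold higher in STO cells at 185 ± 5.88 FPKM (1.92, limma adjusted p = 4.39e-07) and the cholesterol exporter *Npc1* was 3.00-fold higher in NSCs at 24.7 ± 0.411 FPKM (-1.48, limma adjusted p = 1.88e-06).

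Of the genes for the vacuolar ATPase, which acidifies the lysosome, 22 of 23 listed names were matched and 19 were tested. In STO cells 7 of these were higher, 10 lower and 2 not called, with a median of -0.22. Without *Atp6v0e2* and *Atp6v1g2*, which entered through NSCs alone, 7 of 17 were higher and 8 lower, with a median of -0.11. *Atp6v0e2* had 110 and 105 FPKM in NSCs and 0.0967, 0.0453 and 0.0511 in STO cells (-6.67). *Tcirg1*, the a3 subunit known from osteoclasts, was 9.60-fold higher in STO cells at 24.5 ± 1.00 FPKM (2.84, limma adjusted p = 5.22e-08). No set test was made on any list.

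Of 8 regulators around TFEB, 7 were tested, with 6 higher in STO cells, 1 lower and 0 not called (median 0.77), where 85.7% of all genes were called. The 6 that reached 1 FPKM in both cell types were the 6 called higher. Besides *Tfeb*, *Tfe3*, *Mitf* and *Tfec*, the list holds *Flcn*, *Fnip1*, *Fnip2* and *Zkscan3*. It was not confined to activators of lysosomal genes, so its count and median give no direction of regulation. *Tfeb* had 3.82 and 4.52 FPKM in NSCs and 8.10, 7.42 and 7.81 in STO cells (0.77, limma adjusted p = 0.000111), and *Tfe3* had 17.1 and 16.8 against 36.6, 38.6 and 36.9 (1.10, limma adjusted p = 2.38e-06). *Fnip1*, a partner of folliculin, was 3.35-fold higher in STO cells (1.59, limma adjusted p = 1.38e-06). *Mitf* was low, at 1.31 ± 0.0649 FPKM in NSCs and 0.699 ± 0.0958 in STO cells (-0.44). It entered the test through NSCs alone, and its direction turned with quantile normalization (0.35, limma adjusted p = 0.0018). TFEB activity is set largely by its place in the cell, which mRNA levels do not measure.

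**Figure D4:**
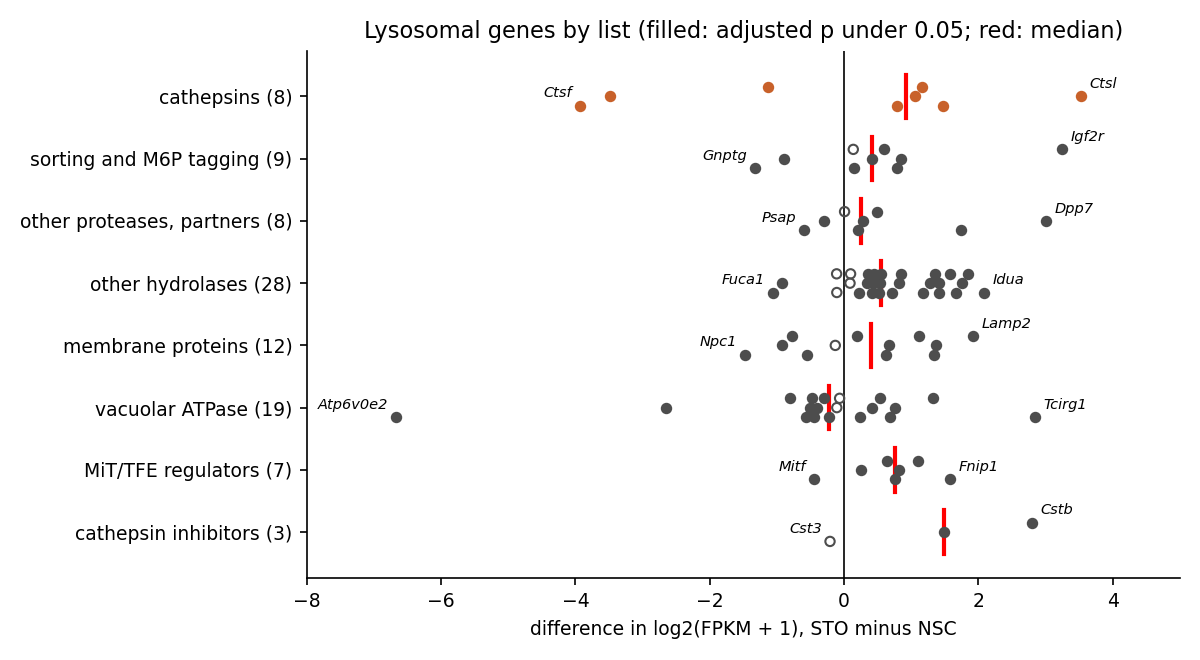
STO minus NSC difference in log2(FPKM + 1) of every tested gene, by list, with called genes filled and the list median in red. Medians stand at 0.92 for the cathepsins, 0.55 for the other hydrolases, 0.41 for the membrane proteins, 0.77 for the regulators and -0.22 for the vacuolar ATPase.

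The genes closest to a cathepsin in level across the 5 samples were found by Euclidean distance in log2(FPKM + 1). For *Ctsf* they were *Rcan2* (distance 0.116), *Plvap* (0.186) and *Rnf180* (0.200). For *Ctsd* they were *Rpl21* (0.277), which has many pseudogene copies, *Tuba1b* (0.366) and *Akr1a1* (0.445).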

How the data were processed

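Total RNA of 2 NSC and 3 STO samples was made into stranded mRNA libraries by the authors and read as paired ends. By their methods and processing notes, reads were aligned to mm9 with HISAT2 (version given as 4.8.2) and quantified with Cufflinks 2.2.1 on RefSeq transcripts. The authors deposited FPKM per transcript with the bounds of its confidence interval, and no read counts were used. Samples were grouped by their labels.

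Of 40201 transcripts, 39951 (99.4%) were matched to symbols through a RefSeq table of GRCm38.p6, used for names and promoter sequences, and FPKM were summed per symbol. Coordinates are mm9. Fragments were implied as the square of 2 FPKM over the distance to the upper bound. For single-transcript genes of at most 30 such fragments, 86.9% to 90.8% of values lay within 0.1 of a whole number. Depth of 15223341 to 22271895 implied fragments sets the counting error that the 95% counting intervals cover, and these intervals cover no other error. At the median over better-covered transcripts, the variance between replicates was 5.56 times that of counting error in NSCs. In pairs of STO replicates it was 3.70 to 4.25 times. The counting intervals leave this spread out. Genes were compared with the R package limma (version 3.58.1 under R 4.3.3, functions lmFit and eBayes, trend on) on log2(FPKM + 1), for genes with a mean of at least 1 FPKM in either cell type, Benjamini-Hochberg adjusted, threshold 0.05. On simulated data of 11700 genes, 92 of 100 genes changed by 1 on the log2 scale were called, and 99 of 99 changed by 2. Of 11398 unchanged genes, 10 were called. Few genes were changed in that simulation and its noise was normal, whereas 85.7% of genes tested were called in the data. Its rates need not hold for the data.

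Partner genes were named by rule: 12 fixed genes, and in each list the 2 with the largest difference among those called without overlap between groups. The members and lists were chosen with earlier results of these data known. Alternatives were another pseudocount, other filters and scalings, no variance trend, the highest transcript, a replicate block and leaving out each replicate.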

Additional observations from a re-analysis of the deposited data

How the results depend on the processing

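Over 14 alternatives each, the 8 tested cathepsins kept their direction and their call. For *Ctsf* and *Ctsh*, which entered through NSCs alone, the call is a description. Other filters and no variance trend cannot change a difference, only its p-value, so they are no check of direction. The highest transcript changed the difference of *Ctsh* alone. The log2 difference ranged from 3.48 to 3.73 for *Ctsl*, from 0.957 to 1.33 for *Ctsd*, from 1.12 to 1.34 for *Ctsb*, from 1.43 to 1.67 for *Ctsa*, from 0.75 to 0.974 for *Ctsz*, from -1.33 to -1.09 for *Ctso*, from -6.17 to -3.57 for *Ctsf* and from -6.35 to -3.25 for *Ctsh*, the lowest values of the last 2 coming from a pseudocount of 0.1. Requiring a difference of at least 1 gave 2099 genes higher and 2613 lower over all genes, against 5147 and 5371. Without 1 replicate each, the genes higher numbered 4703 to 5060 and those lower 4899 to 5248. With FPKM rescaled to the same total in every sample, the summed cathepsin ratio was 2.93 and the median difference of all genes 0.12, a shift from -0.02, while without 1 replicate each the ratio ran from 2.51 to 2.69.

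Of the list counts, inhibitors lower in STO cells became 1 with size factors and 0 to 1 without 1 replicate each (*Cst3*), and regulators lower became 0 with quantile normalization (*Mitf*, 0.35). Over 9 alternatives, genes called higher numbered 5 to 6 for sorting (6 as reported), 4 to 5 for the other proteases (5), 20 to 23 for the hydrolases (22), 6 to 7 for the membrane proteins (7), 5 to 7 for the vacuolar ATPase (7) and 5 to 7 for the regulators (6). Genes called lower numbered 2 to 3 for the hydrolases (2), 4 to 5 for the membrane proteins (4) and 9 to 10 for the vacuolar ATPase (10). *Neu1*, never called, had a difference of -0.029 with size factors and -0.084 to 0.0998 without 1 replicate each. Leaving out replicates for the lists was added after seeing the data. Changes are relative, and the cause of none was tested.

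The replicate numbers are not stated to pair samples, and deviations of same-numbered samples correlated at 0.00293 and 0.0645. With a replicate block, 5 cathepsins were called higher and 3 lower, as without it, and all genes gave 4988 higher and 5249 lower. The block changed no call of a tested cathepsin. It took the genes called higher to 5 for sorting, 6 for the membrane proteins and 6 for the vacuolar ATPase. STO replicate 3 has no NSC sample of its number, so it drops out of the difference under the block. The block therefore gave the same cathepsin differences as leaving out STO replicate 3, and is not a separate check. Depth limits *Ctsk* and *Ctss*, and the STO levels of *Ctsf* and *Ctsh*.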
